A study of Mus musculus with 12 samples.

Results

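The transcripts of 10 genes that modify, fold and process fibrillar procollagen were followed through 12 RNA-seq libraries of sorted lung cells from male mice. They were chosen by name, as the rows of the deposited gene tables for the collagen prolyl 4-hydroxylase subunits *P4ha1*, *P4ha2* and *P4ha3*, the lysyl hydroxylases *Plod1*, *Plod2* and *Plod3*, the collagen chaperone *Serpinh1*, the collagen galactosyltransferase *Colgalt1*, the procollagen C-proteinase *Bmp1* and its enhancer *Pcolce*. They are 10 of 40760 genes in those tables, and all 10 passed the filter on low counts that kept 17418 genes. Cells positive for CD140a (Pdgfra, a surface receptor of lung fibroblasts) were sorted by flow cytometry in 4 groups of 3 libraries. The groups were vehicle and bleo for *WT* mice and the same for *Pear1*-/- mice. Leukocyte and epithelial marker transcripts were also present in each group, with values given below. Bleo is bleomycin, an agent that injures the lung and is used to induce pulmonary fibrosis in mice. In the study's knockout, a trapping cassette in an intron of *Pear1*, the gene for the platelet endothelial aggregation receptor PEAR1, truncates the transcript in the whole animal rather than in fibroblasts alone. The labels do not say how many mice made up a library or whether the replicates were separate animals, so p-values measure the spread between these libraries, which may be technical.

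Collagen chains are modified while they enter the endoplasmic reticulum. Prolyl 4-hydroxylase makes the hydroxyproline that keeps the triple helix stable at body temperature, lysyl hydroxylases make the hydroxylysine that carries sugars and forms cross-links, and the chaperone HSP47, encoded by *Serpinh1*, binds the folded triple helix until it leaves for the Golgi. Outside the cell, BMP1 removes the C-propeptide, which lets the molecules assemble into fibrils, and PCOLCE speeds this cleavage. Excess fibrillar collagen made by mesenchymal cells is the defining feature of lung fibrosis.

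The libraries held between 6702948 and 10447101 counted reads. The chi-square of the counts of a pair of libraries per degree of freedom, which is 1 for pure counting error, lay between 1.35 and 4.82 within each group other than *WT* vehicle. *WT* vehicle replicate 2 stood apart from its own group, at 21.2 and 21.8 against replicates 1 and 3, which differed from each other by 1.58, and it came to between 1.73 and 2.67 against the libraries labelled *Pear1*-/- vehicle. Fold changes, shares and ratios to collagen that rest on *WT* vehicle are therefore also given without it. The *WT* vehicle means, SDs, ranges of levels and ratios to *Pdgfra* and *Pdgfrb* include all 3 libraries. *Pear1* itself had 547 ± 28.8 normalized counts (SD, n = 3) in *WT* with vehicle and 519.7 ± 24.0 in *Pear1*-/- with vehicle, against 254 ± 14.0 for *WT* and 357 ± 14.2 for *Pear1*-/- after bleo. Its difference between the vehicle groups did not pass the test (log2 -0.08 ± 0.08, SE, adjusted p = 0.490, edgeR, and -0.01 ± 0.08, adjusted p = 0.942, without *WT* vehicle replicate 2), and between the bleo groups it was higher, not lower, in the libraries that carry the *Pear1*-/- label (0.48 ± 0.08, adjusted p = 7.54e-05). The gene-level counts showed no loss of *Pear1* and do not split reads before and after the cassette, so they do not check the genotype, which is used here as labelled. Whether *WT* vehicle replicate 2 carries the right label was not tested, and a mislabelled library would change the *WT* vehicle means and the comparisons that use them.

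Promoter windows of 4 of the genes are shown, those of the P4ha family because its 3 members took separate courses, and that of *Serpinh1* because it was the most abundant of the 10. They are the 250 bases before the RefSeq start on GRCm38.p6, 5′ to 3′ on the strand of the gene. The *P4ha1* window lies at chr10:59323046-59323295 on the plus strand, that of *P4ha2* at chr11:54100674-54100923 on the plus strand (inside the annotated gene, from 579 bases after its 5′ end, as the RefSeq start used is a later one), that of *P4ha3* at chr7:100285270-100285519 on the plus strand, and that of *Serpinh1* at chr7:99353240-99353489 on the minus strand. Capitals mark ACGTG, the core of the hypoxia response element, and GGGCGG, the Sp1 box, each searched on both strands (read as CACGT and CCGCCC on the other strand).
P4ha1: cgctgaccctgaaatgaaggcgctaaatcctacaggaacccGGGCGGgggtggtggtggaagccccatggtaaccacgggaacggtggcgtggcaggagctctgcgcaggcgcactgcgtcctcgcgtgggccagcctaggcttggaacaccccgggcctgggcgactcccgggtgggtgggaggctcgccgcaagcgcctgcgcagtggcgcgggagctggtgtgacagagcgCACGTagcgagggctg
P4ha2: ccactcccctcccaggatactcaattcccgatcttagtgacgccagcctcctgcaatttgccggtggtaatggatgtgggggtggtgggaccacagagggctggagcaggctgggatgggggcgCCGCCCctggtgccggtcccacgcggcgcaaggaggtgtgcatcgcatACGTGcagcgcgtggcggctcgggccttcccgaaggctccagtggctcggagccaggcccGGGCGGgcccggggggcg
P4ha3: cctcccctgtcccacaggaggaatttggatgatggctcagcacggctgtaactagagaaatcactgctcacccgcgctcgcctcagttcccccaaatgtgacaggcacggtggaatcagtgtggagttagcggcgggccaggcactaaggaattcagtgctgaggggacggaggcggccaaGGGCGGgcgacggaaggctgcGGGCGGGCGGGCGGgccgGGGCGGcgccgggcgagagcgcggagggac
Serpinh1: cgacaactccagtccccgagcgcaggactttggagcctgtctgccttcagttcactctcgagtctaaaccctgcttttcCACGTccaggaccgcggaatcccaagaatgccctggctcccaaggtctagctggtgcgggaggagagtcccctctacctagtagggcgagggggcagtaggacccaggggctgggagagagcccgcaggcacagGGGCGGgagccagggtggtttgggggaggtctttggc

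In all, 9 windows were found for 8 of the 10 genes, since *Colgalt1* has 2 starts, whose windows overlap each other and reach 26 and 170 bases into the annotated gene, and the *Pcolce* window, like that of *P4ha2*, lies wholly inside it. ACGTG stood in 4 of the 9, those of *P4ha1*, *P4ha2*, *Plod3* and *Serpinh1*, against 16.6% of 32817 upstream windows of all genes. In *P4ha1* it began 16 bases before the start, in *P4ha2* 78 bases, in *Plod3* 54 bases and in *Serpinh1* 171 bases. GGGCGG stood in 8 of the 9 windows, all but that of *Plod3*, against 32.7% of all windows. The 2 *Colgalt1* windows share a single match, so that 7 of the 8 genes had one. The *P4ha3* window held 5 matches of GGGCGG, 3 of them overlapping each other, and no ACGTG. The CCAAT box (CCAAT) was found in 1 of the 9 (33.8% of all windows), that of *Plod3*, the heat shock pair GAANNTTC in 1 (6.69%), of the 2 *Colgalt1* windows only one, the TATA box (TATAAA) in 1 (12.4%), that of *Plod1*, and the AP-1 site TGACTCA (4.46%) and the TEAD site CATTCC (12.6%) in 0 of the 9. These are matches of letters and not measured binding sites.

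Levels were compared between genes as normalized counts per kilobase of annotated exon. In *WT* vehicle the chaperone gene *Serpinh1* was highest, at 2570 ± 42.3 (SD, n = 3), followed by *Pcolce* at 1243 ± 25.0, *Colgalt1* at 246 ± 10.7 and *P4ha1* at 201 ± 22.9. *Plod3* at 113 ± 3.55 and *Plod1* at 108 ± 9.70 came next and overlapped between libraries. Below them stood *Bmp1* at 60.1 ± 4.18, *Plod2* at 51.1 ± 2.98, and *P4ha3* at 43.7 ± 3.53 and *P4ha2* at 38.2 ± 6.21, which overlapped each other. The order of the 10 was the same without *WT* vehicle replicate 2, with *P4ha1* at 188 and *P4ha2* at 35.7 as means of the other libraries. In *Pear1*-/- bleo, *Serpinh1* at 3218 ± 59.2 and *Pcolce* at 1055 ± 17.3 were still the highest, but *P4ha3* came next at 409 ± 4.98, overlapping with *Colgalt1* at 405 ± 13.6. *P4ha3* had been the lowest in *Pear1*-/- vehicle, at 39.2 ± 2.87, and in *WT* bleo it stood just above *Plod1* and overlapped with it, at 121 ± 4.47. *P4ha2* was the lowest of the 10 in *WT* vehicle, *WT* bleo and *Pear1*-/- bleo, at 51.1 ± 5.62 per kilobase in the last.

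**Figure D1:**
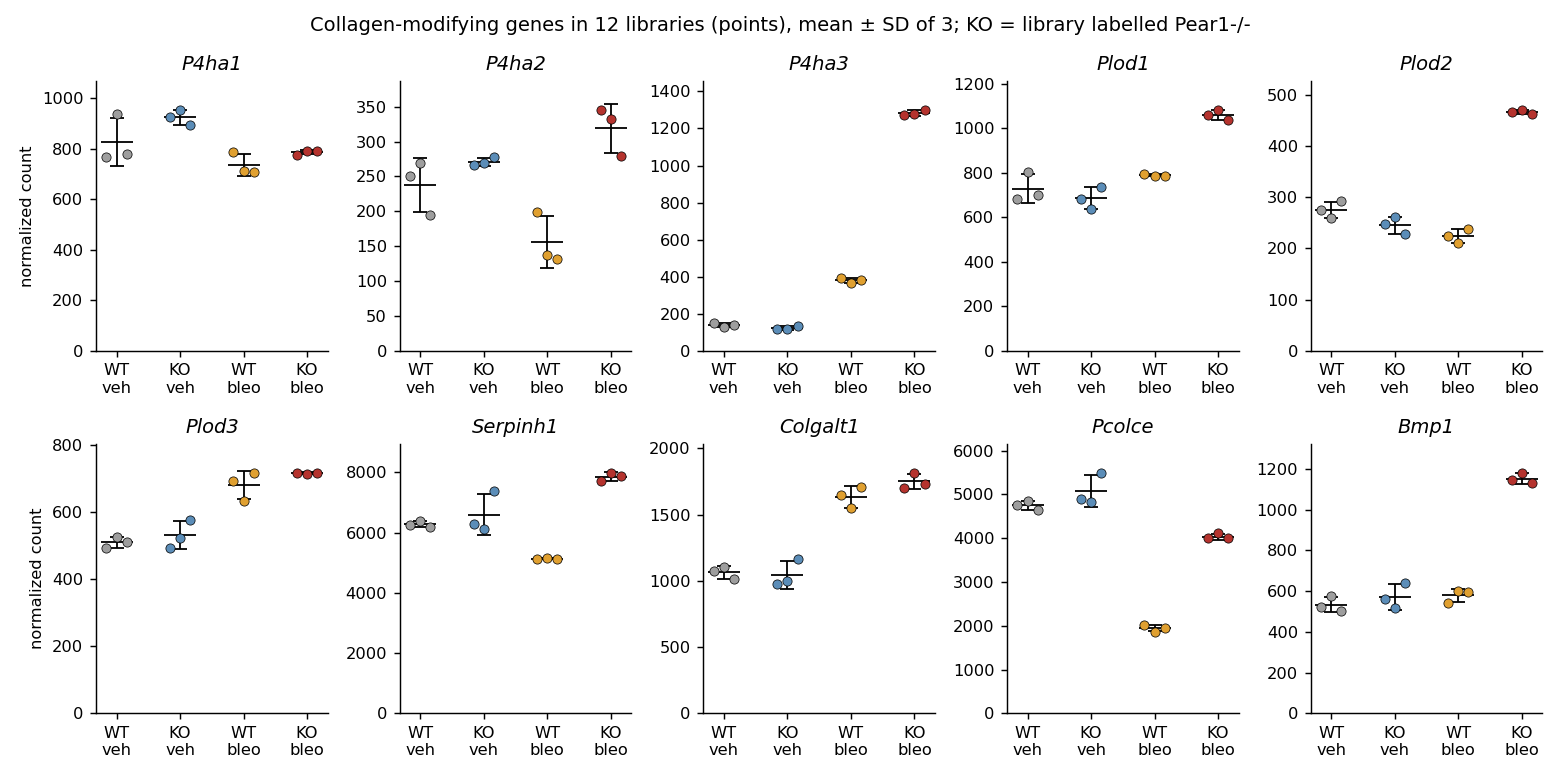
Normalized counts (y axis, from 0) of the 10 genes in 12 libraries (points) by group (x axis, veh = vehicle, KO = labelled *Pear1*-/-), with the mean and SD of 3 as bars. The 3 *Pear1*-/- bleo libraries lay above all other libraries for *P4ha3*, *Plod1*, *Plod2*, *Serpinh1*, *Bmp1* and *P4ha2*, while *Pcolce* was lowest in *WT* bleo.

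Counts of genes were made by edgeR's quasi-likelihood test with Benjamini-Hochberg adjustment over the 17418 genes, either at an adjusted p under 0.05 or with a fold change above 2 as well (both criteria). Between *WT* and *Pear1*-/- vehicle, 0 of the 10 genes passed an adjusted p of 0.05, where 7.24% of all genes did, and 0 had an unadjusted p under 0.05, where 31.4% did. Their log2 fold changes lay between -0.17 (*Plod2*) and 0.18 (*P4ha2*), with standard errors between 0.07 and 0.14. Without *WT* vehicle replicate 2, 5 of the 10 were higher in *Pear1*-/- vehicle, against 25.5% of all genes. They were *P4ha1* (0.33), *P4ha2* (0.35), *Serpinh1* (0.15), *Pcolce* (0.18) and *Bmp1* (0.23). In that fit 0 of the 10 were past both criteria, where 4931 of 20405 genes were. DESeq2 called 0 of the 10 between the vehicle groups (3.78% of all genes), and limma on the normalized values 0 (0.189%). With total counts and no scaling factor in edgeR, *Plod1* (-0.24, adjusted p = 0.0285) and *Plod2* (-0.32, adjusted p = 0.0487) were lower in *Pear1*-/- vehicle, as were 11.8% of all genes.

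In *WT* mice, bleo moved the genes in both directions. *P4ha3*, *Colgalt1* and *Plod3* rose, 3 of the 10 against 31.4% of all genes, and *Pcolce*, *P4ha2*, *Plod2* and *Serpinh1* fell, 4 of the 10 against 36.5%. Past both criteria were *P4ha3* upward (10.5% of all genes) and *Pcolce* downward (23.3%). The median log2 fold change of the 10 was -0.015, beside -0.07 over all genes tested. These shares are near those of all genes. Without *WT* vehicle replicate 2, *Plod1* and *Bmp1* also passed, upward by 0.27 and 0.25, and 5 genes were then higher and 4 lower, against 31.7% and 44.7% of all genes. The other changes that had passed did so again in that fit, at 1.49 for *P4ha3*, 0.72 for *Colgalt1*, 0.51 for *Plod3*, -1.20 for *Pcolce*, -0.43 for *P4ha2*, -0.26 for *Plod2* and -0.20 for *Serpinh1* on the log2 scale. With no filter on low counts in edgeR, the falls of *Plod2* and *Serpinh1* did not pass. *Plod1* (0.26, adjusted p = 0.0306) and *Bmp1* (0.26, adjusted p = 0.0335) did pass in that fit. That made 5 genes higher and 2 lower, where 6396 and 13318 of all 40760 genes were.

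In *Pear1*-/- mice the same treatment gave 7 genes that rose, against 29.1% of all genes, and 2 that fell, *P4ha1* and *Pcolce*, against 33.1%. *P4ha3* and *Bmp1* were past both criteria upward, against 8.37% of all genes. The median of the 10 was 0.54, beside -0.05 over all genes. *Bmp1* sat at the 2-fold line, with a log2 fold change of 1.01, and left the count, which fell to 1, without *Pear1*-/- vehicle replicate 1 or 2 or *Pear1*-/- bleo replicate 1 or 2. *P4ha2* was 0.24 ± 0.14 (SE) on the log2 scale higher, with an adjusted p of 0.127, although the 3 bleo libraries all lay above the 3 vehicle libraries. It passed with no filter on low counts (0.29, adjusted p = 0.0348) and in the fit of the compared groups only (0.23, adjusted p = 0.0251).

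Between the bleo groups, *P4ha2*, *P4ha3*, *Plod1*, *Plod2*, *Serpinh1*, *Pcolce* and *Bmp1* were higher in *Pear1*-/- than in *WT*, 7 of the 10 where 22.1% of all genes were higher, and 0 were lower, where 24.0% were. All 7 had groups that did not overlap, which held upward for 31.3% of all genes. *P4ha2*, *P4ha3*, *Plod2* and *Pcolce* passed both criteria, 4 of the 10 against 6.22% of all genes. The median log2 fold change was 0.79, beside -0.01 over all genes. *P4ha1*, *Plod3* and *Colgalt1* did not pass, with values of 0.08 ± 0.08, 0.06 ± 0.07 and 0.09 ± 0.08 (SE), although *Colgalt1* passed in the fit of the bleo groups only (0.09, adjusted p = 0.0177). The same 7 genes passed the adjusted p in each fit that left out a bleo library, but 3 of the 4 past both criteria lay so near a 2-fold change that the count fell to 1, *P4ha3*, without *WT* bleo replicate 2. The genotypes are as labelled, since the *Pear1* counts do not check them. This comparison shares its libraries with those above, so the values of 1 group enter several of them.

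**Figure D2:**
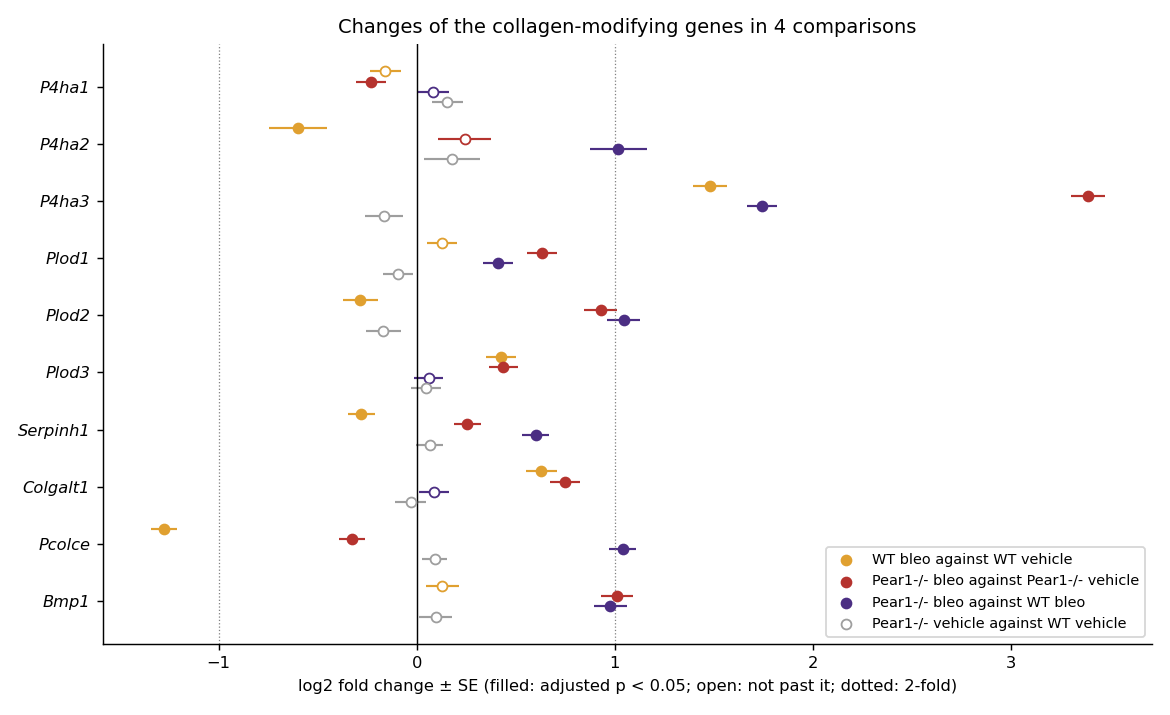
Log2 fold change (x axis, edgeR, bars are standard errors) of each gene (y axis) in 4 comparisons, filled where the adjusted p was under 0.05 and open where it was not, with dotted lines at a 2-fold change. *P4ha3* moved furthest, to 3.39 in *Pear1*-/- bleo against *Pear1*-/- vehicle, and the values between the vehicle groups stayed within -0.17 and 0.18.

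The prolyl 4-hydroxylase subunits went separate ways. *P4ha3* (ENSMUSG00000051048, chr7:100285520-100319699 on the plus strand of GRCm38) encodes the third catalytic subunit and was found at 148, 126 and 137 normalized counts in *WT* vehicle and at 118, 117 and 133 in *Pear1*-/- vehicle. It stood at 393, 365 and 380 in *WT* bleo and at 1271, 1276 and 1300.2 in *Pear1*-/- bleo. The bleo libraries lay above every vehicle library in both genotypes, and the *Pear1*-/- bleo libraries above all others. Bleo raised *P4ha3* 2.80-fold in *WT* (log2 1.48 ± 0.09, adjusted p = 1.91e-11, edgeR) and 10.5-fold in *Pear1*-/- (3.39 ± 0.08, adjusted p = 1.67e-16), and the bleo groups differed 3.35-fold (1.74 ± 0.08, adjusted p = 1.33e-12).

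*P4ha2* (ENSMUSG00000018906, chr11:54100095-54131665, plus strand), the subunit of the second isoenzyme, had the largest SD relative to its mean of the 10 in both bleo groups. It had 251, 269 and 195 normalized counts in *WT* with vehicle and 266, 270.0 and 277 in *Pear1*-/- with vehicle, against 198, 137 and 132 for *WT* and 345, 333 and 279 for *Pear1*-/- after bleo. In *WT* vehicle the libraries of replicates 1 and 2 lay above all *WT* bleo libraries, while replicate 3 lay just below *WT* bleo replicate 1. It fell 1.51-fold with bleo in *WT* (log2 -0.60 ± 0.15, adjusted p = 0.00162, edgeR) and was 2.03-fold higher in *Pear1*-/- bleo than in *WT* bleo (1.02 ± 0.14, adjusted p = 1.13e-05). Leaving out *WT* bleo replicate 2 or 3, or *Pear1*-/- bleo replicate 1 or 2, took it below a 2-fold change.

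*P4ha1* (ENSMUSG00000019916, chr10:59323296-59373304, plus strand), which encodes the catalytic subunit of the main isoenzyme in most cells, had 828 ± 94.2 normalized counts in *WT* with vehicle and 925 ± 30.5 in *Pear1*-/- with vehicle, against 736 ± 44.5 for *WT* and 787 ± 8.92 for *Pear1*-/- after bleo (SD, n = 3). It was the only P4ha gene that fell with bleo in *Pear1*-/- (log2 -0.23 ± 0.08, adjusted p = 0.0146, edgeR). That call was lost, with adjusted p between 0.055 and 0.0734, without any one of *Pear1*-/- vehicle replicates 1 and 2 and the 3 *Pear1*-/- bleo replicates, and with no filter on low counts (-0.18, adjusted p = 0.186). In *WT* its change was -0.16 ± 0.08 (adjusted p = 0.0782), and 0.005 without *WT* vehicle replicate 2, but it passed without *WT* vehicle replicate 1 (-0.20, adjusted p = 0.0447) or 3 (-0.20, adjusted p = 0.0492). With all libraries it also passed under DESeq2 size factors (-0.19, adjusted p = 0.0381), total counts (-0.25, adjusted p = 0.00209) and upper quartile factors (-0.31, adjusted p = 5.57e-04) in edgeR.

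The make-up of the P4ha family was computed as shares of counts per exonic length, a value that does not depend on how libraries are scaled. *P4ha1* made up 71.0% ± 2.61 of the family in *WT* with vehicle and 73.1% ± 1.49 in *Pear1*-/- with vehicle, against 55.1% ± 0.49 for *WT* and 29.4% ± 0.25 for *Pear1*-/- after bleo (SD, n = 3). *P4ha3* made up 15.6% ± 2.32 and 12.7% ± 1.08 in the vehicle groups, 37.3% ± 1.30 in *WT* bleo and 62.8% ± 0.73 in *Pear1*-/- bleo, where it was the most abundant of the 3 in each library. *P4ha2* took 7.62% ± 1.31 in *WT* bleo and 7.85% ± 0.87 in *Pear1*-/- bleo, which overlapped. The exact permutation p (two-sided) of 3 against 3 libraries cannot go below 0.1, and it was 0.1 for *P4ha1* and *P4ha3* in each comparison with a bleo group, 0.16 after adjustment over the 24 tests of shares. Without replicate 2 the *WT* vehicle shares were 69.9%, 13.2% and 16.9% for *P4ha1*, *P4ha2* and *P4ha3*. Without exon length, the *P4ha3* share of *Pear1*-/- bleo was 53.7% ± 0.999.

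**Figure D3:**
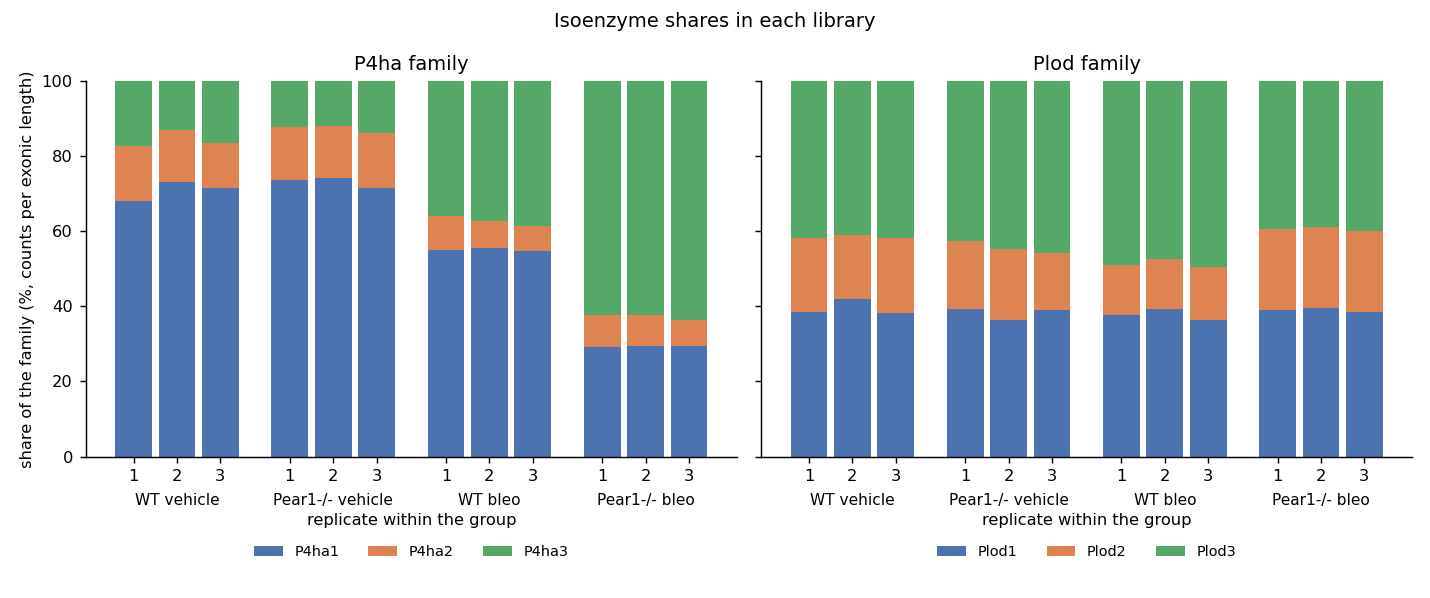
Shares of the P4ha (left) and Plod (right) genes in each library (x axis, replicate within group), as percent of the summed counts per exonic length (y axis). The *P4ha3* part of the bars grows from between 11.9% and 17.2% in vehicle libraries to between 62.3% and 63.6% in *Pear1*-/- bleo. The *Plod2* part is between 13.2% and 13.9% in *WT* bleo and at 21.6% in *Pear1*-/- bleo. The *Plod3* part is between 47.5% and 49.6% and between 39.0% and 39.9% there, while *Plod1* overlaps.

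Of the lysyl hydroxylases, *Plod2* (ENSMUSG00000032374, chr9:92542223-92608428, plus strand) encodes the enzyme that acts on the telopeptides, where it directs the kind of cross-link formed. Its normalized counts were 275, 260 and 292 in *WT* with vehicle and 247, 262 and 228 in *Pear1*-/- with vehicle, against 225, 210.1 and 238 for *WT* and 468, 471 and 462 for *Pear1*-/- after bleo. The *WT* bleo libraries lay below all *WT* vehicle libraries, and the *Pear1*-/- bleo libraries lay far above every other library. The gene fell 1.22-fold with bleo in *WT* (log2 -0.28 ± 0.09, adjusted p = 0.00867, edgeR) and rose 1.90-fold in *Pear1*-/- (0.93 ± 0.08, adjusted p = 1.90e-08). The fall in *WT* did not pass without *WT* bleo replicate 1 (adjusted p = 0.051) or 2 (adjusted p = 0.101), or with no filter on low counts (-0.15, adjusted p = 0.277). The bleo groups differed 2.06-fold (1.04 ± 0.09, adjusted p = 7.96e-09).

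*Plod1* (ENSMUSG00000019055, chr4:147909753-147936767, minus strand) encodes the enzyme that hydroxylates lysines of the helix. It had 728 ± 65.6 normalized counts in *WT* with vehicle and 685 ± 50.2 in *Pear1*-/- with vehicle, against 790 ± 5.68 for *WT* and 1059 ± 23.1 for *Pear1*-/- after bleo (SD, n = 3). Its change in *WT* was 0.13 ± 0.08 (adjusted p = 0.137, edgeR), and in *Pear1*-/- it rose 1.55-fold (0.63 ± 0.07, adjusted p = 6.52e-07). *Plod3* (ENSMUSG00000004846, chr5:136987019-136996648, plus strand), whose enzyme also adds sugars to hydroxylysine, rose in both genotypes, by 0.43 ± 0.08 in *WT* and 0.44 ± 0.07 in *Pear1*-/- on the log2 scale (adjusted p = 6.54e-05 and 5.29e-05, edgeR). The difference between these changes was 0.01 ± 0.11 on the log2 scale.

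Within the Plod family, *Plod2* made up 18.9% ± 1.62 of the counts per exonic length in *WT* with vehicle and 17.3% ± 1.88 in *Pear1*-/- with vehicle, against 13.5% ± 0.34 for *WT* and 21.6% ± 0.02 for *Pear1*-/- after bleo (SD, n = 3). *Plod3* had the reverse order, with 41.6% ± 0.43 and 44.4% ± 1.54 in the vehicle groups of *WT* and *Pear1*-/-, and 48.7% ± 1.13 and 39.4% ± 0.47 in their bleo groups. Between the vehicle groups the *Plod2* shares overlapped (exact permutation p = 0.4), while the *Plod3* shares did not, at 41.1% to 41.8% in *WT* and 42.7% to 45.7% in *Pear1*-/- (exact permutation p = 0.1, 0.16 adjusted over the 24 tests). Without replicate 2 the *WT* vehicle shares were 38.4%, 19.8% and 41.8% for *Plod1*, *Plod2* and *Plod3*. *Plod1* stayed between 37.8% ± 1.43 and 39.6% ± 2.04 in the 4 groups. The groups of bleo libraries did not overlap for *Plod2* and *Plod3* (exact permutation p = 0.1, the smallest possible), and did for *Plod1* (p = 0.3). The exons of *Plod2* overlap the antisense gene *Gm38391* over 346 bases, 6.42% of their length, and those of *Plod3* overlap the antisense gene *Znhit1* over 529 bases, 11.7%. As group means, *Znhit1* had 163 normalized counts in *WT* vehicle and 307 in *WT* bleo, and 198 and 281 in those of *Pear1*-/-. Its part in the *Plod3* counts was not tested. The sources used here do not say that strand was used in counting, so reads there cannot be told apart.

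*Serpinh1* (ENSMUSG00000070436, chr7:99345376-99353239, minus strand) encodes HSP47, a chaperone dedicated to collagen. Its libraries held 6241, 6397 and 6201 normalized counts in *WT* with vehicle and 6303, 6112 and 7393 in *Pear1*-/- with vehicle, against 5134, 5145 and 5130 for *WT* and 7707, 7993 and 7888 for *Pear1*-/- after bleo. The *WT* bleo libraries were the lowest and the *Pear1*-/- bleo libraries the highest of the 12, with no overlap. It fell 1.21-fold with bleo in *WT* (log2 -0.28 ± 0.07, adjusted p = 0.00133, edgeR) and rose 1.19-fold in *Pear1*-/- (0.26 ± 0.07, adjusted p = 0.00294). The fall in *WT* did not pass with no filter on low counts (-0.15, adjusted p = 0.182), and the rise in *Pear1*-/- did not pass without *Pear1*-/- vehicle replicate 1 or 2, or without *Pear1*-/- bleo replicate 2. The bleo groups differed 1.52-fold (0.60 ± 0.07, adjusted p = 6.28e-07).

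*Colgalt1* (ENSMUSG00000034807, chr8:71610998-71624911, plus strand), which encodes the enzyme that links galactose to hydroxylysine, moved in the same direction as *Plod3*. It had 1063 ± 46.4 and 1045 ± 103 normalized counts in *WT* and *Pear1*-/- vehicle, and 1632 ± 80.6 and 1751 ± 58.7 in *WT* and *Pear1*-/- bleo (SD, n = 3). Bleo raised it 1.55-fold in *WT* and 1.68-fold in *Pear1*-/- (log2 0.63 ± 0.08 and 0.75 ± 0.08, adjusted p = 7.63e-07 and 9.84e-08, edgeR). Its exons share 495 bases, 11.4% of their length, with the antisense gene *Unc13a*, which had between 20.4 and 73.1 normalized counts as group means.

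*Pcolce* (ENSMUSG00000029718, chr5:137605103-137613784, minus strand) encodes the enhancer of the C-proteinase and had the lowest fold change of the 10 with bleo in both genotypes. Its normalized counts were 4759, 4844 and 4654 in *WT* with vehicle and 4899, 4836 and 5499 in *Pear1*-/- with vehicle, against 2010.4, 1870.3 and 1954 for *WT* and 3995, 4111 and 3998 for *Pear1*-/- after bleo. Every bleo library lay below every vehicle library, and the 2 bleo groups lay well apart. In *WT* it fell 2.42-fold (log2 -1.28 ± 0.07, adjusted p = 3.40e-12, edgeR) and in *Pear1*-/- 1.26-fold (-0.33 ± 0.07, adjusted p = 2.59e-04), so that *Pear1*-/- bleo was 2.06-fold above *WT* bleo (1.04 ± 0.07, adjusted p = 2.65e-10). It shares 112 exonic bases, 2.93%, with *Fbxo24* and *Gm36266*, which were under 10 normalized counts in each group mean.

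*Bmp1* (ENSMUSG00000022098, chr14:70474558-70520234, minus strand), the proteinase itself, had 520.3, 575 and 505 normalized counts in *WT* with vehicle and 562, 517 and 642 in *Pear1*-/- with vehicle, against 542, 602 and 594 for *WT* and 1144, 1182 and 1129 for *Pear1*-/- after bleo. The first 3 groups overlapped, and the *Pear1*-/- bleo libraries lay above them all. The change with bleo was 0.13 ± 0.08 on the log2 scale in *WT* (adjusted p = 0.180, edgeR) and 1.01 ± 0.08 in *Pear1*-/- (adjusted p = 3.64e-09), and the bleo groups differed 1.97-fold (0.98 ± 0.08, adjusted p = 1.14e-08).

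The change with bleo was not the same in both genotypes for 7 of the 10 genes, all toward higher values in *Pear1*-/-, where 17.8% of all genes did so, and 2 of them, *P4ha3* and *Plod2*, passed both criteria, against 8.53%. The interaction was 1.91 ± 0.12 for *P4ha3* and 1.21 ± 0.12 for *Plod2* on the log2 scale (adjusted p = 1.19e-09 and 3.69e-07, edgeR). *Pcolce*, *Bmp1*, *P4ha2*, *Serpinh1* and *Plod1* followed, with 0.95 ± 0.09, 0.88 ± 0.12, 0.84 ± 0.20, 0.53 ± 0.10 and 0.50 ± 0.11. *Plod2* and *Serpinh1* fell in *WT* and rose in *Pear1*-/-, though neither fall passed with no filter on low counts. The same 7 genes passed in each fit that left out a library, and *P4ha1*, at -0.25, passed as well without *WT* vehicle replicate 2. In that fit the 7 came to 1.89 for *P4ha3*, 1.17 for *Plod2*, 0.85 for *Pcolce*, 0.74 for *Bmp1*, 0.65 for *P4ha2*, 0.44 for *Serpinh1* and 0.35 for *Plod1*. With no scaling factor beyond the total counts, 4 genes passed both criteria, against 10.4% of all genes, and *Colgalt1* passed the adjusted p as well (0.27, adjusted p = 0.0368).

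Fibrillar collagen, the substrate of these enzymes, was higher in *Pear1*-/- bleo. The summed normalized counts of *Col1a1*, *Col1a2* and *Col3a1*, the chains of type I and III collagen, were 90253 ± 1646 in *WT* with vehicle and 90465 ± 3177 in *Pear1*-/- with vehicle, against 97828 ± 572 for *WT* and 278087 ± 5068 for *Pear1*-/- after bleo (SD, n = 3). *Col1a1* differed by 1.73 ± 0.05, *Col1a2* by 1.44 ± 0.05 and *Col3a1* by 1.16 ± 0.05 on the log2 scale between the bleo groups (SE, adjusted p = 4.15e-14, 1.58e-13 and 7.26e-13, edgeR). The estimate for *P4ha3* in the same comparison was 1.74, and those of the other 9 modifying and processing genes were at most 1.04. These differences between genes were not tested.

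The count of each gene was then divided by this collagen sum within a library, a ratio that does not depend on scaling. For 9 of the 10 genes the ratio was lower in each *Pear1*-/- bleo library than in each *WT* bleo library, but this held for 87.1% of all genes too. *P4ha3* was the exception, with a ratio 1.19-fold higher (log2 0.25, -7.76 ± 0.02 against -8.01 ± 0.05, SD), as in 2.06% of all genes. *Plod3*, *P4ha1* and *Colgalt1* had ratios 2.70-fold, 2.65-fold and 2.65-fold lower, *Plod1* was 2.12-fold and *Serpinh1* 1.86-fold lower, and *Bmp1*, *Pcolce*, *P4ha2* and *Plod2* were between 1.43-fold and 1.36-fold lower. The exact permutation p was 0.1 for each gene, the smallest that 3 against 3 libraries allow, and 0.1 adjusted over the 10.

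With *Col1a1* alone as the denominator, 9 ratios were lower without overlap (89.0% of all genes), and *P4ha3*, at 0.02 on the log2 scale, overlapped. With the summed receptors *Pdgfra* and *Pdgfrb* as the denominator, 5 were lower without overlap (78.7% of all genes) and 3 higher (4.47%). The higher ones were *P4ha3* by 0.80, and *Plod2* and *Pcolce* by 0.10 each on the log2 scale. Against these receptors, 0 ratios were lower and 9 higher without overlap in *WT* bleo than in *WT* vehicle (11.5% and 71.1% of all genes). *Serpinh1*, *Plod2* and *P4ha2*, whose counts fell, were among the 9, at 2.03-fold, 2.02-fold and 1.61-fold, and *Pcolce* overlapped. In *Pear1*-/-, 0 were lower and 8 higher (26.4% and 48.9%). *Pdgfra* itself fell with bleo in *WT*, by -1.74 ± 0.07 (SE) on the log2 scale, and -1.73 without *WT* vehicle replicate 2. In *WT* bleo against *WT* vehicle, 5 ratios to the collagen sum were lower and 3 higher without overlap, against 41.2% and 27.0% of all genes, and without *WT* vehicle replicate 2 these were 5 and 4, against 48.1% and 33.1%.

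**Figure D4:**
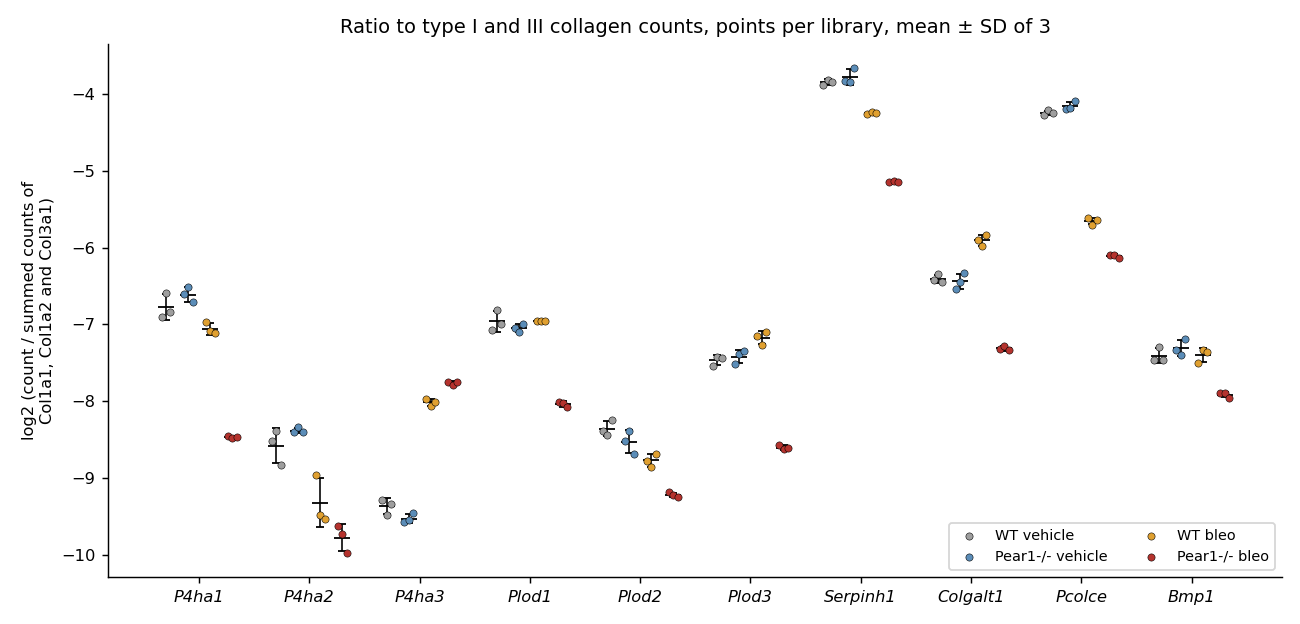
Log2 ratio of each gene's count to the summed counts of *Col1a1*, *Col1a2* and *Col3a1* in the same library (y axis), with points for libraries and bars for the mean and SD of 3 in each group. In 9 genes the *Pear1*-/- bleo points lie lowest, and in *P4ha3* they lie highest.

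The genes that work beside these enzymes were counted in 5 lists. Of 17 endoplasmic reticulum partners, 10 were higher and 2 lower in *Pear1*-/- bleo than in *WT* bleo, with a median of 0.38 on the log2 scale. *P4hb*, the beta subunit that all P4ha subunits need, was higher by 0.64 ± 0.06. The 3-hydroxylase *P3h1* was higher by 1.15 ± 0.07, its partners *Crtap* and *Ppib* (cyclophilin B) by 0.71 ± 0.08 and 0.38 ± 0.13, and the collagen prolyl isomerase *Fkbp10* by 1.38 ± 0.08. *P3h4*, an adaptor of the lysyl hydroxylase complex, was higher by 1.38 ± 0.10, whereas *P3h2* was lower by 2.21 on the log2 scale (-2.21 ± 0.30, SE), at 34.7 normalized counts in *WT* bleo and 7.44 in *Pear1*-/- bleo. In *WT* mice, bleo lowered *Colgalt2*, the paralog of *Colgalt1*, by a log2 change of -2.34 ± 0.19, and *P4htm* by -1.84 ± 0.205 (SE).

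Of 13 genes for export from the endoplasmic reticulum 12 could be tested, and 10 were higher and 0 lower in *Pear1*-/- bleo, with a median of 0.63. *Kdelr3*, a retrieval receptor, was higher by 1.41 ± 0.08, and *Klhl12*, an adaptor for large COPII carriers, fell with bleo in *WT* by a log2 change of -1.58 ± 0.15 (SE). Of 9 other procollagen processing genes 6 could be tested, of which 4 were higher and 2 lower. *Tll1*, a relative of *Bmp1*, was higher by 1.82 ± 0.34 at a low level of 11.1 and 39.8 normalized counts, and the N-proteinases *Adamts14* and *Adamts2* by 1.31 ± 0.13 and 0.74 ± 0.08. *Pcolce2*, the paralog of *Pcolce*, fell with bleo in *WT* (-3.12 ± 0.11) together with *Adamts3* (-1.28 ± 0.22) and *Adamts2* (-1.21 ± 0.08), and *Furin*, a proprotein convertase, rose by 2.18 ± 0.10.

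Of 11 fibrillar collagen genes 10 could be tested, and 9 were higher and 0 lower in *Pear1*-/- bleo, 8 of them past both criteria, with a median of 1.39. *Col11a1* and *Col5a3*, minor fibril chains, were higher by 2.47 ± 0.21 and 2.06 ± 0.09. Of the 5 lysyl oxidases, which act on the hydroxylysine made by the Plod enzymes, 4 were higher and 0 lower, with *Lox* at 1.83 ± 0.08 and *Loxl2* at 1.49 ± 0.09. *Loxl4* fell with bleo in *WT* by a log2 change of -2.52 ± 0.21. Over all genes, 22.1% were higher and 24.0% lower between the bleo groups, with a median of -0.01. Without *WT* vehicle replicate 2, the changes named in *WT* were -2.14 for *Colgalt2*, -1.65 for *P4htm*, -1.66 for *Klhl12*, -3.20 for *Pcolce2*, -1.26 for *Adamts3*, -1.16 for *Adamts2*, 2.12 for *Furin* and -2.58 for *Loxl4*, and each passed the adjusted p.

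**Figure D5:**
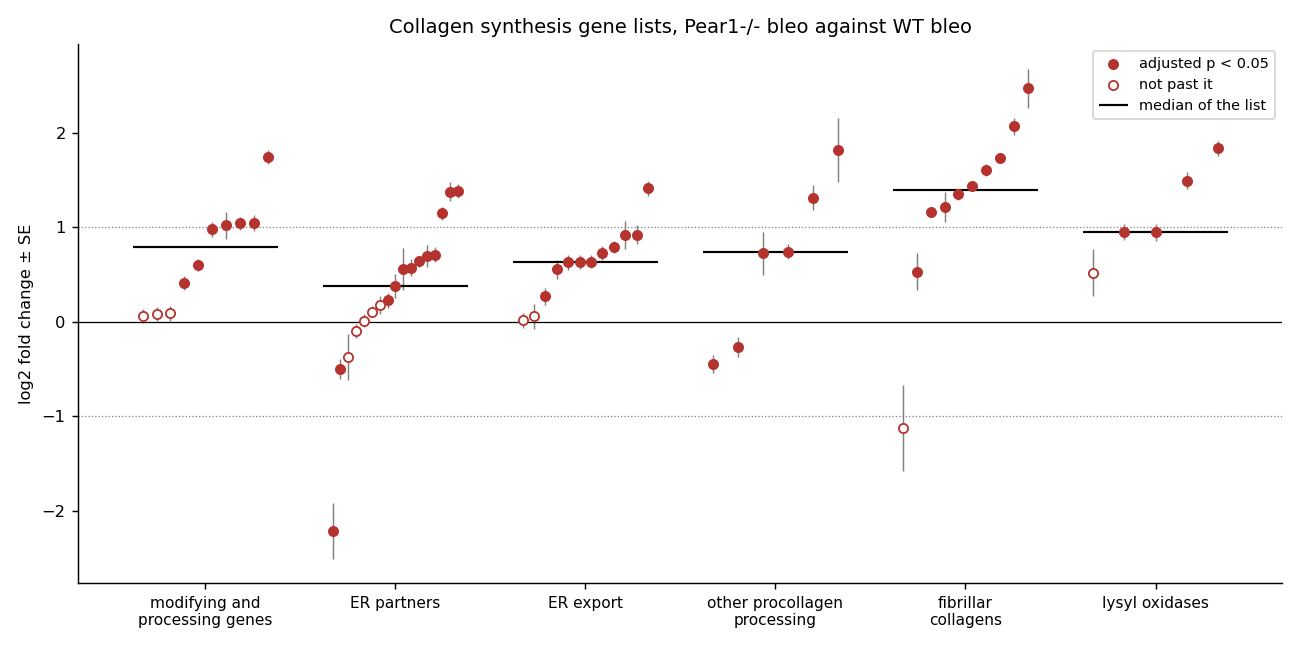
Log2 fold change with its standard error (y axis) of each tested gene in 6 lists (x axis), *Pear1*-/- bleo against *WT* bleo, filled where the adjusted p was under 0.05, with the median of each list as a line and dotted lines at a 2-fold change. The medians run from 0.38 in the endoplasmic reticulum partners to 1.39 in the fibrillar collagens, and that of the 10 modifying and processing genes is 0.79.

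The gene whose profile over the 12 libraries was most like that of each member, among 10706 genes, was taken by Pearson's r of log2 normalized counts. It was *Scube1* for *P4ha3* (r = 0.999), *Surf4* for *Bmp1* (0.996), *Ccr10* for *Pcolce* (0.995), *Rnh1* for *Colgalt1* (0.994), *Dctpp1* for *Plod3* (0.990), *Slc44a2* for *Serpinh1* (0.982), *Emp1* for *Plod2* (0.982), *Chp1* for *P4ha1* (0.974), *Tubb6* for *Plod1* (0.970) and *Mbd1* for *P4ha2* (0.954). Among the members themselves, r was 0.98 between *Plod3* and *Colgalt1*, 0.94 between *P4ha3* and *Plod1* and between *Plod1* and *Bmp1*, and -0.65 between *P4ha1* and *Colgalt1*. The points are 12 libraries in 4 groups, so these values describe the group means for the most part.

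Markers of other cells moved with the same groups. *Pdgfra*, which encodes the sorted receptor, had 4565 ± 325 normalized counts in *WT* with vehicle and 4165 ± 39.1 in *Pear1*-/- with vehicle, against 1360.1 ± 29.9 for *WT* and 2392 ± 18.8 for *Pear1*-/- after bleo (SD, n = 3). *Ptprc*, the leukocyte antigen CD45, had 3303 ± 479 and 3818 ± 263 in the vehicle groups of *WT* and *Pear1*-/-, and 7616 ± 97.8 and 3365 ± 109 in their bleo groups. With bleo in *WT*, 16 of 22 leukocyte markers rose and 5 fell (17 and 4 without *WT* vehicle replicate 2), while 12 of 12 fibroblast (11 without that library), 10 of 12 epithelial, 7 of 8 endothelial (6 without it) and 3 of 4 mesothelial markers fell and 2 epithelial markers rose. With bleo in *Pear1*-/-, 13 leukocyte markers rose and 6 fell, and 9 fibroblast, 10 epithelial, 7 endothelial and 2 mesothelial markers fell, against 2 fibroblast and 1 epithelial that rose. Of 8 smooth muscle and pericyte markers, 2 rose and 3 fell in *WT* (2 and 2 without that library), and 4 rose and 3 fell in *Pear1*-/-. In the vehicle libraries of both genotypes the epithelial sums lay between 43097 and 67826 normalized counts, the endothelial sums between 3851 and 4771, the smooth muscle and pericyte sums between 5381 and 6022 and the mesothelial sums between 228 and 302.

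Between the bleo groups, 18 of the 22 leukocyte markers were lower and 0 higher in *Pear1*-/-. Their summed counts lay between 74935 and 98084 in *WT* vehicle, 94827 and 108004 in *Pear1*-/- vehicle, 359006 and 370055 in *WT* bleo, and 163689 and 167439 in *Pear1*-/- bleo. Of the smooth muscle and pericyte markers, 4 were higher and 2 lower in *Pear1*-/- bleo, with sums between 12746 and 13051 against 4683 and 4742 in *WT* bleo. Of 12 fibroblast markers, 5 were higher and 2 lower, with sums between 27305 and 27685.5 against 21544 and 21802, far below the 79324.5 to 98476 of the vehicle libraries. Epithelial sums (12 markers, 2 higher and 7 lower) lay between 7199 and 7398 in *Pear1*-/- bleo and 16670 and 16911 in *WT* bleo, endothelial sums (8 markers, 2 higher and 2 lower) between 2286 and 2512 and between 2350 and 2458, and mesothelial sums (4 markers, 3 higher and 0 lower) between 117 and 137 and between 71.4 and 85.4. No marker was at 0 in all libraries of a group. The part of these markers in the results on the collagen-modifying genes was not tested, and in these bulk libraries a change in the share of a cell type cannot be told apart from a change in its RNA per cell.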

How the data were processed

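RNA of CD140a+ cells sorted from mouse lung was amplified and sequenced by the authors (SMART-Seq v4, paired reads), who aligned the reads to GRCm38 with HISAT2. The counter and its use of strand are not given in the sources used here. The deposited raw count table holds whole reads per gene. The deposited normalized signal equals the raw count divided by DESeq2's size factor in 100% of genes with a count above 0 in each library, within a relative difference of 1e-06.

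Counts were tested with edgeR 4.0.16 (R 4.3.3), using TMM factors, filterByExpr, a robust quasi-likelihood fit with a mean for each of the 4 groups of 3 libraries, and Benjamini-Hochberg adjustment over 17418 genes. The authors' criteria (fold change above 2, adjusted p under 0.05) were used beside the adjusted p alone. Log2 fold changes are on the TMM scale and levels are deposited normalized counts. Shares and ratios were compared by exact permutation tests (scipy 1.17.1). On simulated data for *Pear1*-/- bleo against *WT* bleo with 16572 genes, 79.6% of 93 genes changed 2-fold and 94.7% of 95 changed 4-fold were recovered. All other genes were simulated without a change, whereas 46.1% of all genes passed the adjusted p in the data, so recovery there may differ.

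Alternatives were DESeq2 1.42.0, limma 3.58.1 on log2(normalized value + 1), other scaling factors, no filter, a replicate block, the compared groups only, a fit without the robust setting and leaving out each library. All 10 genes are named, with *P4hb*, *P3h1*, *Crtap*, *Ppib*, *Fkbp10*, *Adamts2*, *Col1a1*, *Col1a2* and *Col3a1*, the 2 largest rises and falls past both criteria per list in *Pear1*-/- bleo against *WT* bleo and in *WT*, and per member the most correlated gene outside the lists. The members and lists were chosen with earlier results of these data known. Total counts per library limit the precision of low genes, and members had between 120 and 9299 raw counts.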

Additional observations from a re-analysis of the deposited data

Results flagged for a closer look

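The change with bleo was unequal in *WT* and *Pear1*-/- by edgeR's interaction test in 7 of the 10 genes. The interaction, *Pear1*-/- minus *WT* on the log2 scale, was 1.91 for *P4ha3*, 1.21 for *Plod2*, 0.95 for *Pcolce*, 0.88 for *Bmp1*, 0.84 for *P4ha2*, 0.53 for *Serpinh1* and 0.50 for *Plod1*. Adjusted p-values ran from 1.19e-09 (*P4ha3*) to 0.00305 (*P4ha2*). Over all genes, 17.8% had a higher effect in *Pear1*-/- by this test. The genotypes are as labelled, since the gene-level counts of *Pear1* do not check them.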

How the results depend on the processing

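Of 800 recomputed fold changes of the 10 genes, 738 kept their direction and side of the threshold, 13 no longer passed, 21 passed only under the alternative and 28 changed sign, all of the last from values that had not passed. The 2 genes past both criteria in *Pear1*-/- bleo against its vehicle became 1 with DESeq2 size factors or upper quartile factors (1 to 2 when leaving out a library). The 4 between the bleo groups ranged from 1 to 4, the 2 of the interaction from 2 to 3 and became 4 with total counts, and the 2 in *WT* stayed 2. The 9 lower ratios became 5 against *Pdgfra* and *Pdgfrb*. The *P4ha3* and *Plod2* shares of *Pear1*-/- bleo, 62.8% and 21.6% per exonic length (62.4% to 63.0%, and 21.6% throughout, when leaving out a library), were 53.7% and 20.8% without exon length.

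With upper quartile factors, *Plod1* and *Bmp1* in *WT* were each -0.018, and between the vehicle groups *Plod3* was -0.03 and *Serpinh1* -0.013. With total counts, the vehicle groups differed by -0.10 in *Plod3*, -0.086 in *Serpinh1*, -0.062 in *Pcolce* and -0.051 in *Bmp1*. The *P4ha1* interaction was 0.076 with total counts and 0.01 with upper quartile factors. Without the filter, *Colgalt1* between the vehicle groups was 0.064 and the *Plod3* interaction -0.069. Leaving out a library gave -0.203 to 0.005 for *P4ha1* in *WT*, -0.002 to 0.088 for *Plod3* between the bleo groups, -0.138 to 0.055 for *Plod1* and -0.073 to 0.070 for *Colgalt1* between the vehicle groups, and -0.098 to 0.032 for the *Plod3* interaction. The causes were not tested.

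Deviations of same-numbered libraries from their group means correlated between -0.278 and 0.165, and those of differently numbered libraries between -0.166 and 0.216. Deviations from a mean of 3 libraries are tied to each other. Whether a number stands for a shared batch therefore cannot be told from these values. With the replicate block the counts past both criteria were 2 in *WT*, 2 in *Pear1*-/-, 4 between the bleo groups, 0 between the vehicle groups and 2 for the interaction, and no call of the 10 genes changed. The fit without the robust setting, the shares without a library, and the levels, ratios, markers and list genes without *WT* vehicle replicate 2 were chosen after seeing the data.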
